A study of Mus musculus with 5 samples.

Results

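The genes described here are 37 interferon response and antigen processing genes, followed in cells sorted from dystrophic mouse muscle. Their probes were found by the gene name that the array design gives. Of the 37 names, 36 had at least 1 probe, 44 probes in all, among 36409 genes and unnamed features on the array. No probe carried the name Ifi27. The levels of 35 genes were high enough to be tested, among 26095 tested on the whole array, and Oas3 was the gene with a probe that was not.

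All cells came from muscle of C57BL/6 mice of the genotype DMD/MDX, which lack dystrophin and are a model of Duchenne muscular dystrophy. Mice of the first group received the vehicle, and cells positive for CD34, α7-integrin and Sca1 were sorted and called interstitial cells (Sca1+ cells, 2 arrays). Mice of the second group were injected with trichostatin A (TSA) into the peritoneum for 45 days at 0.6 mg per kg; this compound blocks histone deacetylases, and the same gate was sorted (2 arrays). In the third group, also given vehicle, cells positive for CD34 and α7-integrin and negative for Sca1 were sorted and called satellite cells, or muscle stem cells (MuSC, 1 array). The vehicle was given over the same 45 days. Every animal carried the dystrophin mutation, so no comparison with healthy muscle is made. The labels give neither age nor sex of the animals, and they do not say whether a sample was pooled or whether replicates came from separate animals. The p-values therefore measure only the spread between these arrays, which may be technical.

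Interferons are secreted when cells sense viral nucleic acid or other danger. Type I interferon signals through the receptor chains Ifnar1 and Ifnar2 and the kinases Jak1 and Tyk2 to a transcription factor complex that includes Stat2 and Irf9 and binds the interferon-stimulated response element in the promoters of its target genes. Interferon gamma signals through Ifngr1 and Ifngr2 to target genes with a gamma-activated site. The targets include sensors of viral RNA, enzymes and GTPases that block viral growth, and the immunoproteasome and peptide transporter that supply peptides to class I molecules of the major histocompatibility complex. In dystrophic muscle, such genes can be expressed by infiltrating immune cells as well as by resident cells.

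Slide 1 carried the arrays of replicate 1, MuSC included, and slide 2 those of replicate 2. The share of spots well above background ran from 58.5% to 66.9%, without saturation. The 75th percentile of processed signal, as a measure of brightness, stood at 235 and 165 for vehicle Sca1+ cells, at 326 and 452 for TSA, and at 240 for MuSC. A level in what follows is the log2 of a probe's processed signal minus the log2 of that percentile, so 0 stands for the 75th percentile of the array. The defining markers of the sorted cells followed the labels: the summed signal of 6 satellite cell genes (Pax7, Myf5, Calcr, Cdh15, Myod1 and Chrna1), in multiples of the 75th percentile, was 89.5 on the MuSC array against 0.357 and 0.413 on the vehicle Sca1+ arrays, and that of 7 fibroadipogenic progenitor genes, Ly6a (which encodes Sca1) and Pdgfra among them, was 144 against 2028 and 2676. Both TSA arrays stood apart from the vehicle arrays in these lists, with 6.44 and 6.36 for the satellite cell genes and 1092 and 1162 for the progenitor genes. In bulk samples such as these, fewer cells of a type and less RNA per cell cannot be told apart.

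Promoter sequences are shown first, as interferons are known to act through elements in the promoters of their target genes; such elements were matched in some of the members and not in others. RefSeq (GRCm38.p6) gave a window from 250 bases before to 50 bases after the start for 28 of the members. The windows were searched on both strands for the core of the interferon-stimulated response element, GAAA and a further GAAA with any 2 bases between them (TTTC and TTTC on the other strand), and for the gamma-activated site, TTCNNNGAA, which reads the same on both strands. Cores can overlap each other, as in Oas1a and Irgm1. The response element core was present in 14 of 28 members (50%), while 3.44% of all promoter windows and 3.99% of all genes in the table held it. The gamma-activated site was present in 8 of 28 members (28.6%), against 8.30% of windows and 9.55% of genes. The windows of Bst2, Igtp and Oas1a held both, and those of 9 members held neither. A match is a description of the letters only.

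The 250 bases upstream of the start are printed 5′ to 3′ on the strand of the gene, with matches in capitals, for the members that held the response element core and had the largest fall from Sca1+ cells to MuSC (Oas1a, at chr5:120907526-120907775 on the minus strand, and Ifit3, at chr19:34583279-34583528 on the plus strand) and for Irgm1, at chr11:48871421-48871670 on the minus strand, which had one of the smallest falls among the holders:
Oas1a: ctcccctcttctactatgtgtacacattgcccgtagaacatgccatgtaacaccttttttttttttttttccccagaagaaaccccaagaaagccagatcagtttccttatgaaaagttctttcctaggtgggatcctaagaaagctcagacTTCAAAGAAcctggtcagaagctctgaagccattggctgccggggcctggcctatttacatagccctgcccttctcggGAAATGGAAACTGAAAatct
Ifit3: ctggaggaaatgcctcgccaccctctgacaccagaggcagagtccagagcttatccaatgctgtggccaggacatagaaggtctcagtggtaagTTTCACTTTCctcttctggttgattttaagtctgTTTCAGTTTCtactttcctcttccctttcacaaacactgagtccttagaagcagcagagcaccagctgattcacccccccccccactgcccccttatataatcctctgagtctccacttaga
Irgm1: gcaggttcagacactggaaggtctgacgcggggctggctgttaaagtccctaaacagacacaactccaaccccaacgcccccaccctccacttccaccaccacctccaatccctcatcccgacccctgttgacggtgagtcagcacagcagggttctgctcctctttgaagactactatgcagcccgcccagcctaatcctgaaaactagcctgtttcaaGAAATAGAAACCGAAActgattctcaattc

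In Oas1a, the overlapping cores lay at −20 to −11 and −14 to −5 from the start and the gamma-activated site at −98 to −90. In Ifit3 the cores lay at −156 to −147 and −122 to −113, and in Irgm1 at −30 to −21 and −24 to −15. Ddx58, the holder with the smallest fall, had its match after the start, at 2 to 11, and none in the 250 bases before it. The bases around that match lie at chr4:40239804-40239833 on the minus strand:
Ddx58: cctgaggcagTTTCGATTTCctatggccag

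Tap1 and Psmb9 start head to head on chromosome 17, and 275 of the 300 bases of their windows are the same stretch read from opposite strands. Neither motif matched there. The upstream bases of Tap1, at chr17:34187306-34187555 on the plus strand, are printed because both neighbours share them:
Tap1: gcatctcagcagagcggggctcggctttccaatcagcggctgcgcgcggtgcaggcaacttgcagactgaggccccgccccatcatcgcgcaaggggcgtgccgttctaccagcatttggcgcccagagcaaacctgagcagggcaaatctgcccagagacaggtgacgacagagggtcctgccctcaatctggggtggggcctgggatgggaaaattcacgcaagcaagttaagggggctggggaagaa

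The first comparison sets MuSC against Sca1+ cells, both with vehicle. The interferon response genes were lower in MuSC almost throughout: 28 of the 35 tested members passed the test as lower and 0 as higher (limma, Benjamini-Hochberg adjusted p under 0.05 over all genes). Among all genes tested, 11.7% passed as lower and 10.5% as higher. The median member differed by −1.39 on the log2 scale, and the median of all genes by −0.04. At least 2-fold lower were 25 members, against 13.7% of all genes. The difference was below 0 for 34 of 35 members and for 52.5% of all genes. The MuSC array lay below both vehicle Sca1+ arrays for the same 34 (44% of all genes) and below all 4 Sca1+ arrays for 33 (28.5% of all genes). There is 1 MuSC array, and the model takes its spread from the Sca1+ arrays. The count was 12 without TSA replicate 1, 12 without TSA replicate 2, 17 without vehicle replicate 1 and 16 without vehicle replicate 2, while the median member stayed between −1.43 and −1.31.

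**Figure D1:**
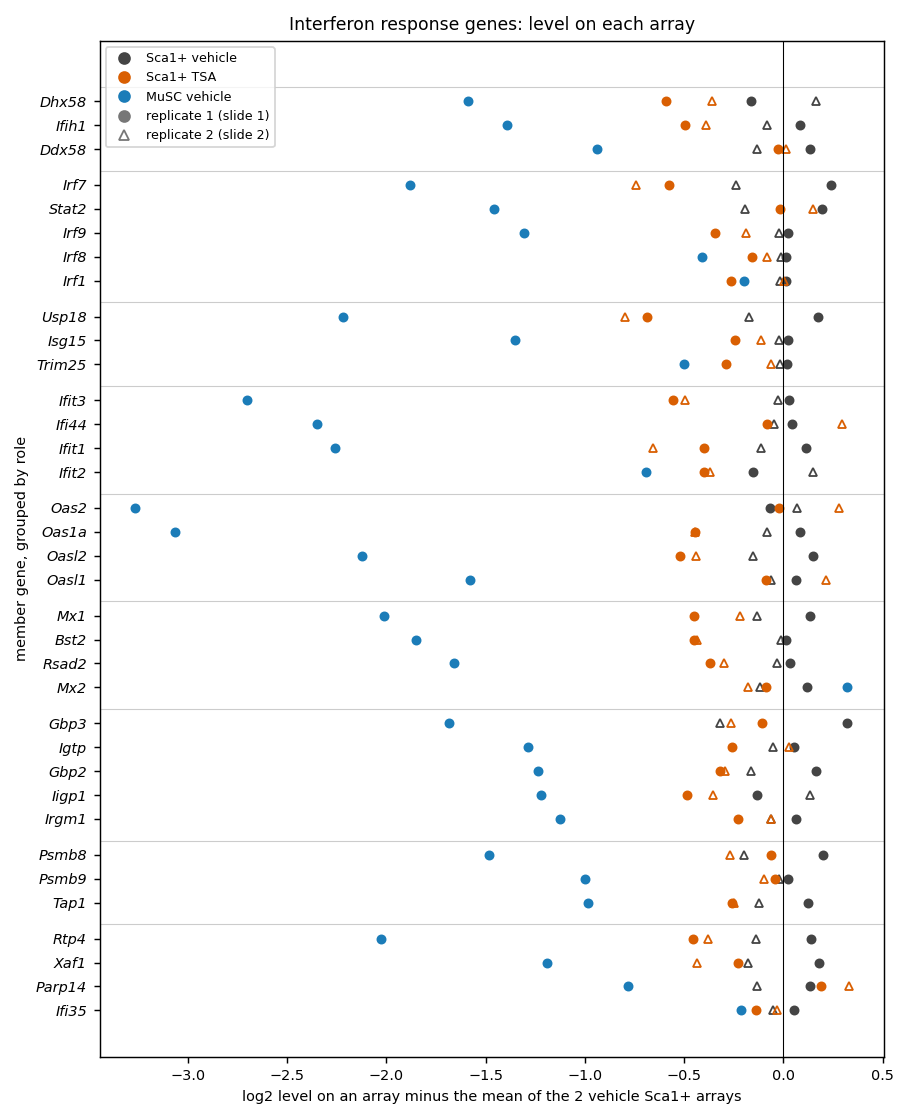
Level of each of the 35 tested members on each of the 5 arrays, as the log2 difference from the mean of the 2 vehicle Sca1+ arrays (horizontal axis), with genes grouped by role (vertical axis); circles are replicate 1 and triangles replicate 2. The MuSC array lies left of all 4 Sca1+ arrays for 33 members, and right of all 4 for Mx2, at 0.32.

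The oligoadenylate synthetase family, which makes the short adenylate chains that switch on the RNA-degrading enzyme RNase L, held the 2 largest differences. All 4 tested members of the family passed as lower. Oas2 stood at 1.56 and 1.69 with vehicle and 1.60 and 1.90 with TSA in Sca1+ cells, and at −1.64 in MuSC. It was 9.61-fold lower in MuSC (log2 difference −3.26 ± 0.22 SE, limma adjusted p = 0.0028). Oas1a stood at 2.91 and 2.74 with vehicle, 2.38 and 2.38 with TSA and −0.24 in MuSC, 8.36-fold lower (−3.06 ± 0.19, limma adjusted p = 0.00229). The 4 Sca1+ levels of each gene lay close together and far from the MuSC level, with no overlap. Oasl2, a related protein of the same family, stood at 2.68 and 2.38 with vehicle, 2.01 and 2.09 with TSA and 0.41 in MuSC, 4.36-fold lower (−2.12 ± 0.22, limma adjusted p = 0.00692). Its Sca1+ levels with vehicle lay above those with TSA, and all of them above MuSC. Oasl1 fell by 1.58. Oas3 was not tested: its levels were −5.06, −4.86, −4.69, −4.92 and −6.08 in the same order, and it was well above background on the second TSA array only. The probes of Oas2, Oas3 and Oas1a lie within 166.5 kb on chromosome 5 (mm9), and those of Oasl2 and Oasl1 within 25.8 kb elsewhere on that chromosome.

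The IFIT proteins bind foreign RNA and stop its translation, and Ifi44 is an interferon-induced protein expressed beside them. Of these 4 genes, 3 passed as lower. Ifit3 stood at 2.35 and 2.30 with vehicle, 1.77 and 1.83 with TSA and −0.38 in MuSC, 6.5-fold lower (−2.70 ± 0.18, limma adjusted p = 0.00262). Ifi44 stood at −0.68 and −0.77, −0.81 and −0.43, and −3.07, 5.09-fold lower (−2.35 ± 0.24, limma adjusted p = 0.00679). Ifit1 stood at 0.56 and 0.34, 0.05 and −0.21, and −1.81, 4.78-fold lower (−2.26 ± 0.23, limma adjusted p = 0.00642). For all 3 the MuSC level was far below the 4 Sca1+ levels. Ifit2 did not pass, with −0.57 and −0.27 with vehicle, −0.82 and −0.78 with TSA and −1.11 in MuSC (−0.69 ± 0.22, limma adjusted p = 0.0983). Its MuSC level was still the lowest of the 5. The probes of Ifit2, Ifit3 and Ifit1 lie within 73.6 kb of each other on chromosome 19 (mm9).

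Usp18 is a protease that takes the ubiquitin-like modifier Isg15 off proteins and also damps signalling at the type I interferon receptor. It stood at 1.58 and 1.23 with vehicle, 0.72 and 0.61 with TSA and −0.81 in MuSC, 4.65-fold lower in MuSC than in vehicle Sca1+ cells (−2.22 ± 0.23, limma adjusted p = 0.00723). The 3 groups did not overlap. Isg15 itself fell by 1.35, from 4.03 and 3.99 to 2.66. Trim25, a ubiquitin ligase that acts on the RNA sensor encoded by Ddx58, did not pass: it stood at 3.50 and 3.46, 3.19 and 3.42, and 2.98 (−0.50 ± 0.20, limma adjusted p = 0.161).

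Among proteins that act on virus particles or their assembly, Bst2 (tetherin, which holds budding virus at the cell surface) fell by 1.85 and Rsad2 (viperin, an enzyme that makes a chain-terminating nucleotide) by 1.66. Mx1, a GTPase against influenza virus whose gene is defective in C57BL/6 mice, stood at −2.62 and −2.88 with vehicle, −3.20 and −2.97 with TSA and −4.76 in MuSC. The MuSC array was not well above background for it, so it was at least 4.03-fold lower there (limma adjusted p = 0.00865). Here the probe's own signal was above the lowest signal counted as above background, so that bound equals the measured ratio. Mx2, the neighbouring GTPase gene, went the other way without passing: it stood at −0.77 and −1.0, −0.97 and −1.06, and −0.56 (0.32 ± 0.20, limma adjusted p = 0.334). The probes of Mx1 and Mx2 lie 113.7 kb apart from end to end on chromosome 16 (mm9). A difference between these neighbours was not tested.

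The sensors of viral RNA all passed as lower. Dhx58 fell by 1.59, Ifih1 (which encodes MDA5) by 1.39 and Ddx58 (which encodes RIG-I) by 0.94. The adjusted p of Ddx58, 0.0441 by limma, was close to the threshold. Ddx58 did not pass with median scaling, in a fit over all probes or with no filter on dim probes. Ifih1 did not pass with the mean over its probes. The second probe of Ifih1 differed by −0.78 without passing, and was not well above background in MuSC or on the second vehicle array.

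Of the transcription factors, Irf7, Stat2 and Irf9 passed as lower and Irf1 and Irf8 did not. Irf7, which is induced by interferon and drives the interferon alpha genes, stood at 0.42 and −0.06 with vehicle, −0.40 and −0.57 with TSA and −1.70 in MuSC, 3.68-fold lower (−1.88 ± 0.28, limma adjusted p = 0.0157). Stat2 and Irf9, which act together in the type I response, fell by 1.46 and 1.31. Irf1, a factor of the interferon gamma response, stood at 3.87 and 3.84, 3.59 and 3.86, and 3.65 (−0.20 ± 0.21, limma adjusted p = 0.544), so its MuSC level lay between the TSA levels. Irf8, a factor of myeloid cells, stood at −0.05 and −0.08, −0.22 and −0.15, and −0.47 (−0.41 ± 0.18, limma adjusted p = 0.188). Its MuSC level was the lowest of the 5, though not beyond the spread by the test.

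The interferon-inducible GTPases of the GBP and IRG families, which attack the vacuoles of intracellular microbes, all passed as lower: 5 of 5, from −1.12 for Irgm1 to −1.68 for Gbp3. Second probes lay outside that range. In a fit over all probes, that of Irgm1 differed by −0.66 without passing, and that of Iigp1 by −2.22 and passed. The genes of class I peptide supply passed as lower in 3 of 3. These calls depended on the processing. With no filter on dim probes, none of these GTPases and class I genes passed. With the 3 vehicle arrays alone, Igtp was the only one of them that passed. Psmb8 and Psmb9, catalytic subunits of the immunoproteasome, fell by 1.48 and 1.0, and Tap1, a chain of the transporter that carries peptides into the endoplasmic reticulum, by 0.98. The probes of these 3 neighbours lie within 18.7 kb on chromosome 17 (mm9). Psmb9 stood at 2.06 and 2.02 with vehicle, 2.00 and 1.94 with TSA and 1.04 in MuSC, and Tap1 at −0.41 and −0.66, −0.79 and −0.78, and −1.52. Both genes, which share the upstream bases printed above, were at their lowest on the MuSC array.

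Of the other interferon-stimulated genes, Rtp4 stood at 3.32 and 3.04 with vehicle, 2.73 and 2.80 with TSA and 1.15 in MuSC, 4.07-fold lower (−2.03 ± 0.21, limma adjusted p = 0.00722), and Xaf1 fell by 1.19. Rtp4 encodes a chaperone that brings receptors to the cell surface, and Xaf1 a binding partner of the apoptosis inhibitor XIAP. Parp14, an ADP-ribosyltransferase, stood at 1.77 and 1.51, 1.83 and 1.97, and 0.86 (−0.78 ± 0.22, limma adjusted p = 0.074). Ifi35 stood at 1.80 and 1.69, 1.61 and 1.71, and 1.53 (−0.21 ± 0.19, limma adjusted p = 0.468). Neither passed, and for both the MuSC level was the lowest of the 5. A probe that the design names Ifi27l1 has an accession that RefSeq now calls Ifi27. It stood at 6.19 and 6.08, 5.94 and 5.95, and 5.28; it was picked after its values were seen and is in no count.

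Of 8 members with 2 probes, the second probe was tested in 7, and all 7 had the sign of the first in MuSC against Sca1+ cells. In a fit over all probes, the second probes of Ddx58, Iigp1 and Oas1a passed as lower. Those of Isg15, Irgm1, Xaf1 and Ifih1 did not, with limma adjusted p of 0.0506, 0.179, 0.188 and 0.467. In the promoter windows, the 13 tested members with the response element core had a median difference of −1.46 and the 14 without it −1.10. The 8 with a gamma-activated site had a median of −0.99 and the 19 without −1.39. These medians are descriptions of the windows that were found and were not tested.

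Other genes of the pathway were read in lists. Of 7 tested genes for ligands and receptors, 3 passed as lower in MuSC: Ifngr1 fell by 1.85, Ifnar2 by 1.49 and Il10rb, a shared receptor chain, by 1.15. Of 21 genes for signalling from receptors and sensors, 7 passed as lower and 0 as higher. Tlr3, a sensor of double-stranded RNA, was at least 3.40-fold lower, since the MuSC array was not well above background for it, and Sting1, the adaptor for DNA sensing, fell by 1.47. Of 16 genes for class I presentation, 10 passed as lower, led by H2-M3, a nonclassical class I molecule, with −2.04 ± 0.19, and Tapbp, which loads peptides onto class I molecules, with −1.93 ± 0.18. Of 33 further interferon-stimulated genes, 19 passed as lower and 1 as higher. The largest fall there was that of Cxcl9, a chemokine for T cells, which stood at 1.71 and 1.48 with vehicle and −3.30 in MuSC (29.7-fold lower). Ifi204, a member of the interferon-inducible p200 family, went from 5.06 and 5.05 to 1.17 (14.8-fold lower), and Ifitm1, a membrane protein against viral entry, was the gene that passed as higher, from −0.32 and −0.69 to 1.61 (4.32-fold higher).

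Class II presentation genes, which are expressed mainly in professional antigen-presenting cells, were called in both directions. Of 9 genes, 1 passed as lower and 1 as higher, and the list's median was 0.75. Ifi30, a thiol reductase of lysosomes, fell by 2.72, from 3.85 and 3.92 to 1.17. H2-Eb1, a class II chain, rose by 0.81, from 2.88 and 2.96 to 3.72 (limma adjusted p = 0.0479). Ciita, the master regulator of class II genes, stood at −1.74 and −2.46 with vehicle and −3.27 in MuSC without passing (−1.17 ± 0.35). Over all 86 of these other pathway genes, 40 passed as lower and 2 as higher.

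**Figure D2:**
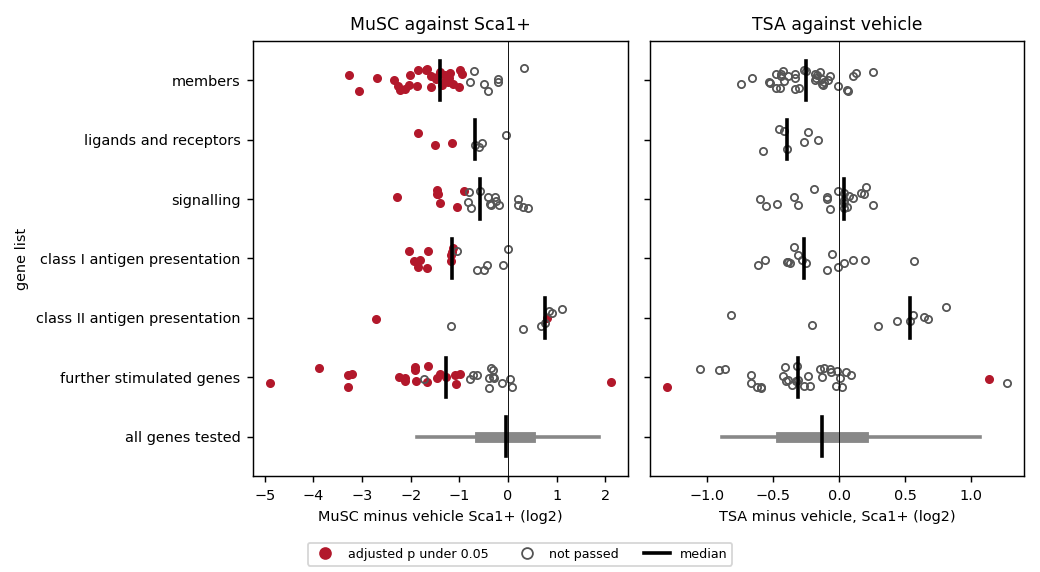
Log2 differences of the members and of 5 other lists of pathway genes in MuSC against vehicle Sca1+ cells (left) and in TSA against vehicle Sca1+ cells (right); each point is a gene, filled where limma's adjusted p was under 0.05, black bars are medians, and for all genes tested the grey bars span the middle 50% (thick) and 90% (thin). The members' median lies at −1.39 on the left and −0.25 on the right, and the class II list has a median above 0 on both sides, 0.75 and 0.54.

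Markers of other cell types were measured beside the members. Summed over its genes, in multiples of the 75th percentile, the macrophage list (10 of 10 genes well above background on each of the 5 arrays) gave 25.8 and 37.3 on the vehicle Sca1+ arrays and 27.3 on the MuSC array, but the largest part of that sum is the signal of Csf1r, which stood at 4.04 and 4.87 against 3.69. Gene by gene, the macrophage list had a median difference of 0.69 with 2 of 10 genes below 0, and 0 of them passed as lower and 1, Mrc1, as higher. The T and NK cell list gave 11.6 and 20.6 against 7.91, with 3 of 6 genes tested and none of them passed. All 3 were below 0, with a median difference of −0.87. Cd3e, its gene with the widest gap between the vehicle arrays, stood at 2.18 and 3.58 against 1.86. The endothelial list gave 59.0 and 96.1 against 43.9, with a median difference of −1.36, 5 of 7 genes passed as lower and 1, Vwf, as higher. The dendritic cell list gave 195 and 234 against 157, nearly all of it from Siglech, at 7.60 and 7.86 against 7.28 without passing. Of its 4 tested genes, 1, Itgax, passed as higher (0.93 ± 0.18, limma adjusted p = 0.0303), and the median was 0.20. Pericyte and smooth muscle genes gave 42.5 and 43.2 against 804, with 5 of 6 passed as higher and 1, Pdgfrb, as lower (−0.91 ± 0.20). The largest part of the MuSC sum was Acta2, at 3.33 and 3.29 against 9.33. Schwann cell genes gave 2.65 and 2.53 against 30.7, with 4 of 4 higher. B cell genes gave 0.293 and 0.231 against 0.189, with 1 of 4, Ms4a1, passed as lower, though it was not well above background in either group. Red blood cell genes gave 32.2 and 34.2 against 12.5, with 2 of 2 tested genes below 0 and 1, Hba-a1, passed as lower. Granulocyte and mast cell genes gave 8.07 and 7.82 against 7.23, with 5 of 5 tested genes below 0 and 0 passed. Xcr1 and Clec9a of dendritic cells and Cd3d, Cd3g and Ncr1 of T and NK cells were not tested, as no group had them well above background on all its arrays. The members themselves summed to 170 and 154 against 68.8. The part of these cell types in the members' difference was not tested.

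**Figure D3:**
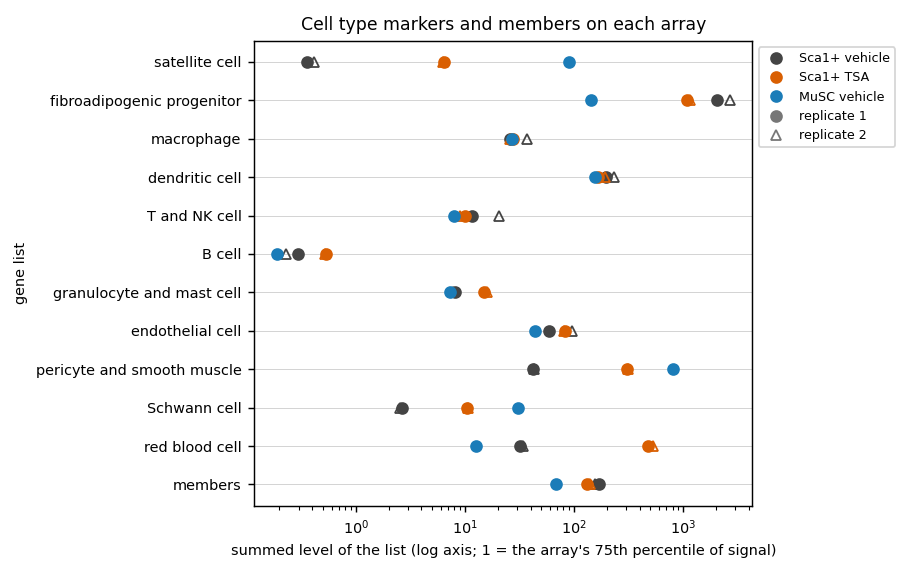
Summed signal of the marker lists and of the members on each array (horizontal log axis, in multiples of the array's 75th percentile; circles replicate 1, triangles replicate 2). The satellite cell list runs from 0.357 on a vehicle Sca1+ array to 89.5 on the MuSC array with both TSA arrays between, at 6.44 and 6.36, while the macrophage list, with Csf1r as its largest part, lies between 25.8 and 37.3 on all 5 arrays.

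The second comparison sets TSA against vehicle within Sca1+ cells. None of the 35 tested members passed: 0 were called higher and 0 lower by limma at an adjusted p under 0.05, against 2.71% of all genes called higher and 0.268% called lower. At an unadjusted p under 0.05, 7 members were lower (Usp18, Ifit3, Bst2, Irf7, Ifit1, Oas1a and Ifih1), against 12.7% of all genes, and 0 were higher, against 10.5%. The 7 became 0 without vehicle replicate 1, without TSA replicate 1 and without TSA replicate 2, 3 without vehicle replicate 2, 3 under normexp, 3 with median scaling, 4 in the authors' deposited table and 2 with no filter on dim probes; with an eBayes trend it was 10. The difference was below 0 for 30 of 35 members and for 61.4% of all genes, with a median of −0.25 for the members and −0.13 for all genes. Both TSA arrays lay below both vehicle arrays for 23 members (36.4% of all genes) and above both for 1, Parp14 (22.9%). No member was lower by 2-fold or more, against 2.97% of all genes.

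The gap between the members' median and that of all genes, −0.12, changed with the processing. With normexp on the median spot signal, which changes both the background correction and the spot signal that is read, the median of the members was −0.11 and that of all genes −0.25, so that the members' median stood 0.14 above that of all genes. The same setting turned the calls over all genes from 708 higher and 70 lower to 1253 higher and 5876 lower. With it 22 members were below 0, and Usp18 passed as lower (−0.61, limma adjusted p = 0.0361). With no filter on dim probes the gap was −0.012, with medians of −0.25 and −0.24, and without vehicle replicate 1 it was −0.061, with medians of −0.15 and −0.09.

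Usp18, the Isg15 protease, had the largest difference, with 1.58 and 1.23 on the vehicle arrays and 0.72 and 0.61 on the TSA arrays (−0.74 ± 0.19 SE, 95% interval −1.26 to −0.23, limma adjusted p = 0.14). Both TSA levels lay below both vehicle levels. Irf7 went from 0.42 and −0.06 to −0.40 and −0.57 (−0.66 ± 0.23, 95% interval −1.27 to −0.05, limma adjusted p = 0.199). Ifit1 went from 0.56 and 0.34 to 0.05 and −0.21 (−0.53 ± 0.18, 95% interval −1.02 to −0.03, limma adjusted p = 0.202). Neither overlapped between the groups, and neither passed after adjustment.

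The differences above 0 were smaller. Parp14 stood at 1.77 and 1.51 with vehicle and 1.83 and 1.97 with TSA (0.26 ± 0.18, 95% interval −0.22 to 0.73, limma adjusted p = 0.415), the one member with both TSA arrays above both vehicle arrays. Oas2 differed by 0.13 ± 0.18 and Ifi44 by 0.11 ± 0.20, with overlapping arrays, and both were below 0 without TSA replicate 2, at −0.02 and −0.08. The 95% intervals of all 35 members excluded a rise of 1 log2 unit, and those of 31 excluded a fall of 1. The intervals are wide beside the differences, so the arrays do not show that the members were alike in both groups.

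By role, no group of members had a call. The median was −0.44 for the sensors of viral RNA, −0.13 for the transcription factors, −0.45 for the IFIT genes and Ifi44, −0.19 for the oligoadenylate synthetase family, −0.34 for Mx1, Mx2, Rsad2 and Bst2, −0.19 for the GTPases of the GBP and IRG families and −0.17 for the immunoproteasome and Tap1. It was −0.18 for Isg15, Usp18 and Trim25, and −0.21 for Xaf1, Parp14, Ifi35 and Rtp4. Ddx58, at −0.01, was the sensor nearest to 0, while Dhx58 and Ifih1 stood at −0.47 and −0.44. The second probe of Ifih1 had the opposite sign (0.40), with levels of −4.09 and −5.60 with vehicle and −4.54 and −4.35 with TSA, and it was not well above background on the second vehicle array. Of the 7 second probes tested, the other 6 had the sign of the first.

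Each slide held 1 vehicle and 1 TSA array, so the difference can be read within a slide. On slide 1 the median member differed by −0.35 (33 of 35 below 0, against 62.4% of all genes), and on slide 2 by −0.09 (25 of 35 below 0, against 57.8%), while the medians of all genes were −0.12 and −0.11. On slide 2 the members' median was thus near that of all genes. Lower on both slides were 25 members (48.2% of all genes) and higher on both 2, Oas2 and Parp14 (27.9%). The vehicle arrays themselves differed: 31 of 35 members were higher on vehicle replicate 1 than on replicate 2, with a median of −0.12 from replicate 1 to 2, against 58.5% of all genes and a median of −0.064. With 1 array of each kind on a slide, no test within a slide was possible.

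**Figure D4:**
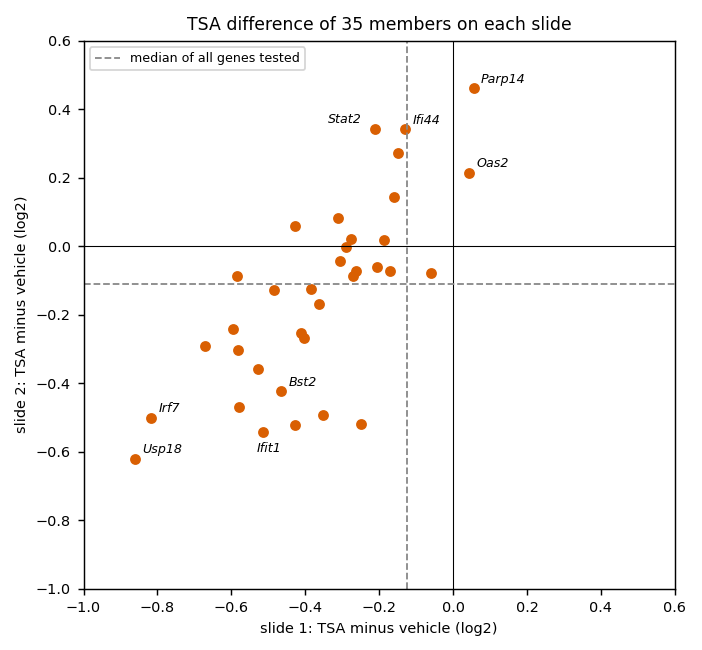
TSA minus vehicle (log2) of the 35 tested members on slide 1 (horizontal axis) and slide 2 (vertical axis), with dashed lines at the median of all genes tested. Usp18 and Irf7 lie lowest on slide 1, Parp14 and Oas2 are above 0 on both slides, and the members reach from −0.86 to 0.06 on slide 1 and from −0.62 to 0.46 on slide 2.

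Among the 86 other pathway genes, 1 passed as higher and 1 as lower in TSA against vehicle. Cxcl9 stood at 1.71 and 1.48 with vehicle and 0.35 and 0.21 with TSA (−1.31 ± 0.17, limma adjusted p = 0.0429). Gbp4, a guanylate-binding protein, stood at −0.80 and −0.85 with vehicle and 0.35 and 0.27 with TSA (1.13 ± 0.15, limma adjusted p = 0.0427). The groups did not overlap for either. Gbp4 is a relative of the members Gbp2 and Gbp3, which stood at −0.31 ± 0.18 and −0.19 ± 0.27; that they differ from Gbp4 was not tested.

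The largest differences in the other lists did not pass. Ifitm1 differed by 1.28 ± 0.20 (limma adjusted p = 0.064), H2-Ab1 by 0.81 ± 0.20 (limma adjusted p = 0.129), Ifi30 by −0.82 ± 0.15 (limma adjusted p = 0.0825), H2-M3 by −0.61 ± 0.15 (limma adjusted p = 0.134) and Nlrc5, an activator of class I genes, by 0.57 ± 0.18. Tlr9 and Tlr7, sensors of nucleic acid in endosomes, differed by −0.60 ± 0.22 and −0.55 ± 0.68, and Ifna1 and Ifngr1 by −0.58 ± 0.25 and −0.45 ± 0.19. The class II list had a median of 0.54 with 2 of 9 genes below 0, and the ligand and receptor list a median of −0.40 with 7 of 7 below 0, neither with a call.

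Markers of other cell types moved with TSA where the members did not pass. Passed as higher were 5 of 6 satellite cell genes, 4 of 6 pericyte and smooth muscle genes and 3 of 4 Schwann cell genes. So were 3 of 5 granulocyte and mast cell genes and 2 of 2 red blood cell genes. In the granulocyte and mast cell list, the mast cell genes Cpa3, Cma1 and Fcer1a passed. The granulocyte genes S100a8 and S100a9 did not, at −0.19 and −0.09. Summed, pericyte and smooth muscle genes gave 42.5 and 43.2 with vehicle and 306 and 315 with TSA, and red blood cell genes 32.2 and 34.2 against 480 and 528. Acta2, at 7.86 and 7.90 with TSA, was the largest part of the pericyte and smooth muscle sums there. Of the progenitor genes, 1 of 7, Pi16, passed as lower, and all 7 were below 0. Of the endothelial genes 1 of 7, Vwf, passed as higher (2.96 ± 0.15, limma adjusted p = 0.00527), with a list median of 0.73, and of the B cell genes 1 of 4, Ms4a1, which was at least 3.46-fold higher since no vehicle array was well above background for it. The macrophage list summed to 25.8 and 37.3 against 27.8 and 26.1, with Csf1r as the largest part. Its median difference was 0.58 with 2 of 10 genes below 0, and 0 of 10 passed. The T and NK cell list gave 11.6 and 20.6 against 10 and 8.99, with 0 of 3 passed. All 3 of its tested genes were below 0, with a median of −0.73. The members summed to 170 and 154 with vehicle and 132 and 141 with TSA. The part of these cell types, and of the higher overall signal of the TSA arrays given at the outset, in the members' values was not tested.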

How the data were processed

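RNA of sorted cells was hybridised to 5 Agilent arrays of 1 colour. Per the file headers, Agilent Feature Extraction produced the spot intensities, including a processed intensity from which background had been subtracted. The authors' deposited table of processed values is on a log2 scale with the same median in every column, and served as an alternative only.

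From log2 of the processed signal, the 75th percentile over an array's non-control spots was subtracted; outlier spots were left out (0.196% to 0.334%) and spots of a probe averaged. A gene was read by its probe with the highest mean and kept when 1 or more groups had it well above background on all their arrays. The files of slide 2 hold no gene names, so names came from slide 1 by feature number. Symbols were updated through accessions in RefSeq; 42 of the 44 member probes matched, and Mx1 and Mx2 kept the design's names. Probe positions are in mm9, as the files give them. Linear models of limma 3.58.1 (lmFit and eBayes, under R 4.3.3) were fitted to the 3 groups of arrays together (two-sided, p adjusted by Benjamini-Hochberg, threshold 0.05), with 2 residual and 2.30 prior degrees of freedom. Errors of differences are the model's standard errors. The number of arrays limits the precision. A gene not above background in MuSC has a fold bound: the vehicle mean against the higher of the probe's own signal and the lowest signal counted as above background. The code was tested on simulated data.

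Replicate arrays correlated at 0.987 (vehicle) and 0.989 (TSA). Whether replicate numbers pair samples is not stated; the difference between replicates 1 and 2 correlated at 0.348 across genes between vehicle and TSA, and 2 pairs do not settle it.

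The members and gene lists were chosen with earlier results of these data known. By rule, values per array are given for the 3 largest TSA differences in each direction, the 10 largest falls in MuSC, members that did not pass there, and members whose probes differ in sign. The 2 largest of each other list are named, many of them by their difference only. Alternatives were normexp (offset 50), quantile and median scaling, the deposited table, other filters and probe rules, an eBayes trend, the replicate block, fewer groups and leaving out each array. The normexp alternative was meant for the mean spot signal, which 3 of the 5 files hold, so the median spot signal was used, a choice made after seeing the files.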

Additional observations from a re-analysis of the deposited data

How the results depend on the processing

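In MuSC against Sca1+ cells, the 28 members called lower became 26 under normexp (median −1.12), 17 with no filter on dim probes, 18 with the 3 vehicle arrays alone, and 12 to 17 when an array was left out; 0 were called higher throughout. With the mean over the probes of a gene, 26 members were called lower, Ifih1 and Irgm1 no longer among them, and Irf1 was at 0.00175. With either TSA replicate left out, Irf7, Irf9, Stat2, Isg15 and Xaf1 did not pass, nor did the sensors of viral RNA. The GTPases of the GBP and IRG families, Psmb8, Psmb9 and Tap1 did not pass there either. With no filter on dim probes, these GTPases, Psmb8, Psmb9, Tap1, Ddx58, Stat2 and Xaf1 did not pass. Mx1 and Tap1 did not pass under normexp, and Parp14 passed with an eBayes trend. With the replicate number as a block, the same 28 members were called lower in MuSC and 0 in TSA against vehicle. In TSA against vehicle, 1 member (Usp18) was called lower under normexp and 0 in the other alternatives. Without TSA replicate 2, Ifi44 stood at −0.085 and Oas2 at −0.023; leaving out each array in turn, they ranged to 0.30 and 0.28.

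Calls over all genes for TSA, 708 higher and 70 lower, became 1253 and 5876 under normexp, 1200 and 475 with an eBayes trend, 932 and 166 with the block, 280 and 3 with no filter, 304 and 9 without vehicle replicate 1, 190 and 6 without vehicle replicate 2, and 0 and 0 without either TSA array. For MuSC, 2737 higher and 3046 lower became 1571 and 1809 with no filter, 1815 and 2017 with the 3 vehicle arrays, and 1406 and 1647 without TSA replicate 1. The cause of these changes was not tested. Leaving out the MuSC array gives no value for its comparison, and normexp on the mean spot signal was not run.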
